A study of Homo sapiens with 4 samples.

Results

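The mitochondrial ribosome, or mitoribosome, is the machine that translates the messenger RNAs of the mitochondrial genome, which encode core subunits of the respiratory chain and of ATP synthase. Its ribosomal RNAs are transcribed inside the mitochondrion, whereas all of its proteins are encoded in the nucleus, made in the cytosol and imported. Proteins of the large subunit mostly carry the symbol MRPL and those of the small subunit MRPS. The genes described here are all protein-coding genes named MRPL or MRPS with a number, chosen by symbol alone, without pseudogenes and readthrough genes. There were 78 of them among 62443 genes, 49 with an MRPL and 29 with an MRPS symbol. By their place in the assembled particle, 51 belong to the large subunit, among them MRPS30 and MRPS18A, and 26 to the small subunit. The remaining gene, MRPS36, is now known to encode a component of the α-ketoglutarate dehydrogenase complex.

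RNA was sequenced from 2 control and 2 GLUP-treated libraries of HGC-27, a human gastric cancer cell line. GLUP is an engineered cyclic peptide that binds the Hippo pathway transcription factor TEAD4 and links its molecules together, and the cells received 10 μg/ml of it, for 12 h by the study's results text and for 48 h by its methods. Control cells were given the peptide's storage buffer according to the methods, while the labels list no treatment for them. The replicates are biological according to the methods. Of the cell type markers, KRT8, KRT18 and KRT19 lay between 0.764 and 2.25 FPKM, EPCAM at no more than 0.124 FPKM, and the mesenchymal marker VIM between 293 and 387 FPKM. CD3E was listed at 0 in every library, and PTPRC, CD68 and VWF did not exceed 0.0394 FPKM. COL1A1 lay between 2.97 and 6.91 FPKM and COL3A1 between 15.3 and 21.5 FPKM, and PECAM1 was not matched. The part of these markers in the results was not tested.

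Values are FPKM, fragments scaled for transcript length and for the size of each library, so levels of different genes can be set side by side per length. All genes together summed to between 909735 and 949919 FPKM per library, and the sequencing depth is unknown, so no counting error can be given. Fold changes are differences of group means on the log2(FPKM + 1) scale, GLUP minus control, which understates the change of low genes, and their standard errors (SE) come from limma with 2 libraries a group. Across all genes tested the control libraries correlated at a Pearson r of 0.933 and the GLUP libraries at 0.986. Control replicate 2 stood apart: on the log2(FPKM + 1) scale 16 of the 78 genes lay over 2-fold lower in it than in control replicate 1 and 2 lay over 2-fold higher. The numbers of called genes among the 78 and the fold changes of MRPL22, MRPS34 and MRPL38 are therefore given with and without it.

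Mitoribosomal protein genes were well expressed in HGC-27 cells. All 78 passed the minimum mean level of 1 FPKM, and 74 had a mean of 5 FPKM or more. Their mean levels ran from 3.08 to 4256 FPKM, with a median of 47.3 FPKM, and 87.8% of the genes tested lay below that median. The most abundant was MRPL13, a conserved large subunit protein, which gave 5261 and 5612 FPKM in control and 3133 and 3016 FPKM with GLUP. The groups did not overlap, and the log2 fold change was −0.82 (SE 0.23, adjusted p = 0.10). MRPL51, the next in level, gave 1398 and 916 FPKM in control and 1030 and 1149 FPKM in GLUP-treated cells, so its GLUP values lay inside the control range. MRPL27, whose bacterial counterpart reaches into the peptidyl transferase centre, gave 886 and 1255 FPKM against 419 and 599 FPKM. MRPL55 gave 726 and 361 FPKM in control and 501 and 692 FPKM in GLUP-treated cells, again within the control range. MRPS21, a small subunit protein, gave 479 and 659 FPKM against 382 and 453 FPKM, with the groups apart. MRPS18C completes the 6 most abundant and is described with the lower genes.

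Summed over the 78 genes, the control libraries reached 15064 and 15136 FPKM and those with GLUP 10184 and 10963 FPKM. The GLUP mean was 70% of the control mean, and the groups did not overlap. As a share of all FPKM, the genes took 1.66% and 1.64% in control and 1.09% and 1.15% in GLUP-treated cells. A few abundant genes made up most of the gap. MRPL13 alone held 52.2% of the difference between the mean sums, and with MRPL27, MRPS18C and MRPL32 the share was 81.5%. Without MRPL13 the sums were 9803 and 9524 FPKM in control against 7051 and 7947 FPKM in GLUP-treated cells. Large subunit genes summed to 12592 and 12341 FPKM in control and 8244 and 8863 FPKM with GLUP, and small subunit genes to 2465 and 2780 FPKM and to 1932 and 2093 FPKM. The GLUP mean was thus 68.6% of control for the large and 76.7% for the small subunit. FPKM is relative to each library, so a lower sum does not by itself show less RNA per cell. In bulk libraries fewer cells of a kind and less RNA per cell cannot be told apart. The genes tested were also shifted down as a whole, by a median of −0.36 on the log2 scale. MRPL13 had the lowest GC content of the 78 genes, 33.5%. Its log2 fold change of −0.82 became 0.07 after the correction for GC content described below. The parts of the shift and of base composition in the lower sum were not tested.

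**Figure D1:**
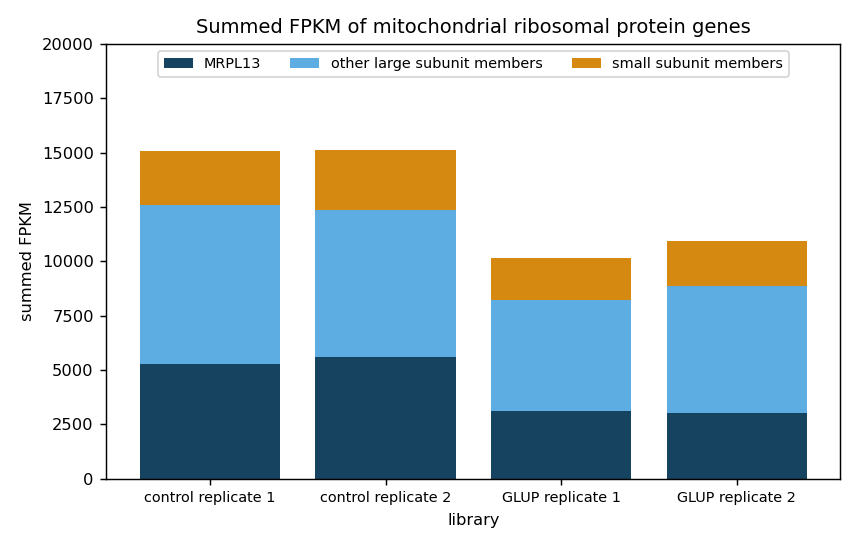
Summed FPKM (vertical axis) of the mitochondrial ribosomal protein genes in each of the 4 libraries (horizontal axis), stacked as MRPL13, other large subunit genes and small subunit genes, with MRPS36 left out. The control libraries stand at 15064 and 15136 FPKM in sum and the GLUP libraries between 10184 and 10963 FPKM, and MRPL13 holds between 27.5% and 37.1% of each sum over the 78 genes.

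The single-gene comparison asks which of these genes differ between GLUP-treated and control cells. With an adjusted p under 0.05 (limma, Benjamini-Hochberg) and a fold change over 2, none of the 78 genes was called, against 0.0264% of the 7588 genes tested. The lowest adjusted p among the 78 was 0.10. Since none passed the adjusted threshold, the genes below are described by their values under a looser rule, a fold change over 2 with an unadjusted p under 0.05, and a gene that meets it is said to be called. By this rule 16 genes were lower with GLUP, 20.5% of the 78, where the background over all genes tested was 14.5%. Higher with GLUP were 6 genes, or 7.69%, against a background of 4.67%. Their median log2 fold change was −0.24, where all genes tested had one of −0.36. This difference of 0.12 lay within the spread between replicates (SD 0.13) and changed sign to −0.22 when all genes with a value above 0 were tested, to −0.071 after GC correction and to −0.025 without control replicate 2. The quartiles were −0.82 and 0.43, with 29 genes above 0 and 49 below 0, so the genes lay on both sides of 0. The GLUP values were both below the control values for 34 genes, against a background of 49.7% of genes tested, and above both for 17 genes, against 17.5%. For 15 genes, or 19.2%, both GLUP values fell inside the control range, against 14.5% of genes tested. MRPS36, MRPL23 and MRPL57 lay nearest to that all-gene median, with log2 fold changes of −0.39, −0.40 and −0.42.

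**Figure D2:**
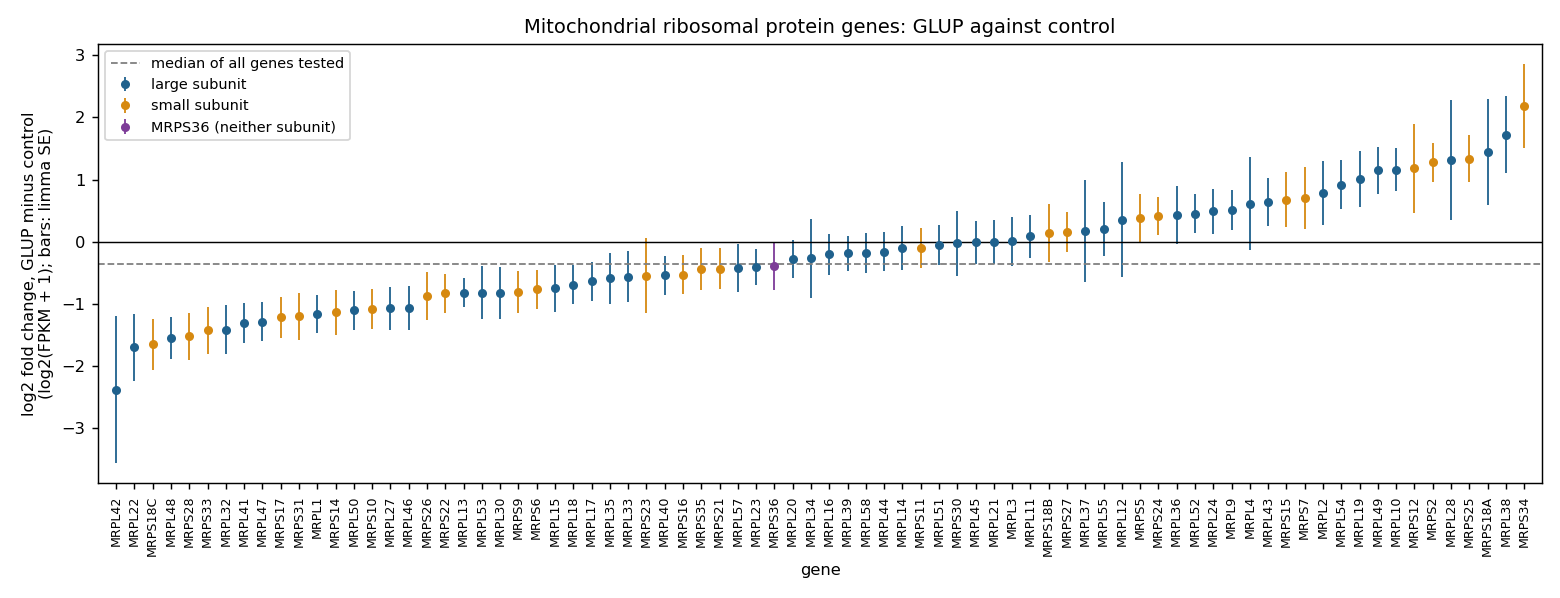
Log2 fold change, GLUP minus control, on the log2(FPKM + 1) scale (vertical axis) of the 78 genes ordered by it (horizontal axis), with limma standard errors as bars, coloured by subunit, and the median of all genes tested as a dashed line. The genes run from −2.38 for MRPL42 to 2.19 for MRPS34, and large and small subunit genes lie at both ends.

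The 16 genes called lower came from both subunits, 9 from the large and 7 from the small, with log2 fold changes from −1.70 to −1.06 and adjusted p from 0.10 to 0.12. MRPL22, which lines the tunnel through which new proteins leave the ribosome (chr5:154320633-154348971, plus strand, GRCh37), gave 173 and 485 FPKM in control and 96.8 and 81.0 FPKM with GLUP. Its control libraries lay far apart, its GLUP libraries both lay below them, and the log2 fold change was −1.70 (SE 0.54). Without control replicate 2 it was −0.96 and without control replicate 1 it was −2.44. MRPS18C, a small subunit protein of a family related to bacterial S18 (chr4:84377085-84390888, plus strand, GRCh37), gave 434 and 841 FPKM against 177 and 206 FPKM. The groups were apart, with a log2 fold change of −1.65 (SE 0.41). Its annotated pseudogene MRPS18CP7, which may share reads with it, was listed at 7.51 and 26.1 FPKM in control and 3.94 and 7.19 FPKM with GLUP, far below the gene itself.

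MRPL48, a protein of the central protuberance of the large subunit (chr11:73498917-73576178, plus strand, GRCh37), had the lowest unadjusted p of the 78 genes. It gave 85.7 and 114 FPKM in control and 31.1 and 35.2 FPKM with GLUP, a log2 fold change of −1.55 (SE 0.34), with each group tight and the groups well apart. MRPS28, a small subunit protein, gave 65.5 and 100.3 FPKM against 24.3 and 31.3 FPKM, a log2 fold change of −1.52 (SE 0.37). MRPS33, a protein of the small subunit head that bacteria lack, gave 48.7 and 73.1 FPKM against 18.2 and 25.6 FPKM, a log2 fold change of −1.42 (SE 0.38). In all 3 genes the higher GLUP library lay below the lower control library. MRPL32, which must be cut by the mitochondrial m-AAA protease before it joins the large subunit, gave 365 and 640 FPKM in control and 163 and 201 FPKM with GLUP, a log2 fold change of −1.41 (SE 0.39). MRPL41, a large subunit protein specific to mitochondria and also known to bind BCL2, gave 13.9 and 14.7 FPKM against 4.15 and 6.34 FPKM, with a log2 fold change of −1.31 (SE 0.32). MRPL47, at the exit of the tunnel, gave 63.9 and 70.4 FPKM against 28.7 and 25.2 FPKM, a log2 fold change of −1.29 (SE 0.32). The control libraries of MRPL41 and MRPL47 differed little from each other, so these differences did not rest on a single control library. The other 8 called lower were MRPS17, MRPS31, MRPL1, MRPS14, MRPL50, MRPS10, MRPL27 and MRPL46, with log2 fold changes from −1.22 to −1.06.

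The 6 genes called higher were 3 of each subunit, with log2 fold changes from 1.15 to 2.19 and adjusted p from 0.10 to 0.13. MRPS34, a mitochondria-specific protein of the small subunit that is mutated in a form of Leigh syndrome (chr16:1821891-1823151, minus strand, GRCh37), gave 32.7 and 7.29 FPKM in control and 79.7 and 70.8 FPKM with GLUP. Both GLUP libraries lay above both controls, and the log2 fold change was 2.19 (SE 0.67). Without control replicate 2 it was 1.17 and without control replicate 1 it was 3.20. MRPL38, of the central protuberance (chr17:73894725-73901174, minus strand, GRCh37), gave 9.70 and 1.96 FPKM against 18.3 and 16.9 FPKM, a log2 fold change of 1.72 (SE 0.62), which became 0.79 without control replicate 2 and 2.65 without control replicate 1. In both genes the GLUP libraries were close together and the control libraries were not.

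MRPS25, another mitochondria-specific small subunit protein, gave 19.9 and 11.5 FPKM in control and 38.6 and 40.8 FPKM with GLUP, a log2 fold change of 1.33 (SE 0.38). MRPS2, the counterpart of bacterial S2, gave 3.29 and 2.09 FPKM against 8.57 and 7.14 FPKM, a log2 fold change of 1.28 (SE 0.31). MRPL10, which anchors the stalk that recruits translation factors, gave 4.02 and 2.16 FPKM against 8.78 and 7.07 FPKM, a log2 fold change of 1.16 (SE 0.35). For each of these genes the lower GLUP value was above the higher control value, and the lower control value was again that of control replicate 2. MRPL49 gave 3.35 and 1.32 FPKM against 6.35 and 5.76 FPKM, a log2 fold change of 1.15 (SE 0.38). MRPL49 lies wholly within the span of SYVN1 on the opposite strand, which was at 65.9 to 107.9 FPKM, and MRPS2 overlaps PIERCE1, at 5.49 to 14.6 FPKM. Whether the counting used strand is not given in the sources used here, so reads of such pairs cannot be told apart. Of the 22 called genes, 8 overlap another gene above 1 FPKM in some library (MRPL46, MRPL47, MRPL49, MRPS2, MRPS14, MRPS17, MRPS18C and MRPS28). Among all 78 genes 26 do so, a similar share.

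**Figure D3:**
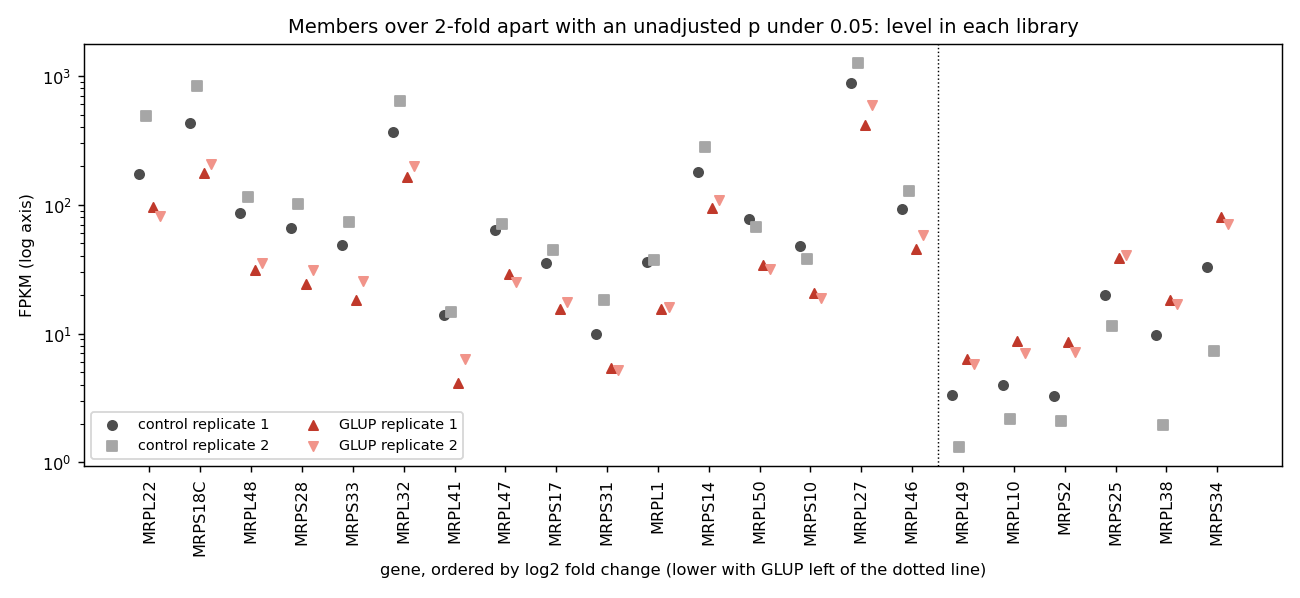
FPKM on a log axis (vertical) of the 22 genes called lower (left of the dotted line) or higher (right of it) with GLUP, ordered by log2 fold change (horizontal axis), with 1 marker for each of the 4 libraries. The rule that picked these genes from the same values favours groups that lie apart. In every one of the 22 both GLUP markers lie on the same side of both control markers. In the 6 higher genes control replicate 2 is the lowest.

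Leaving out a control library changed these counts. Without control replicate 2, 11 of the 16 lower calls and 2 of the 6 higher calls stood, the latter being MRPS2 and MRPS34. Without control replicate 1, 15 and all 6 stood. In each of these fits the lone control library is assumed to vary like the GLUP libraries, and under the adjusted threshold 40 of the 78 genes were then called without control replicate 1 (19 higher and 21 lower, background 35.7% of genes tested) and 19 without control replicate 2 (2 higher and 17 lower, background 13.4%). MRPL1, MRPL32, MRPL41, MRPL47, MRPL48, MRPL50, MRPS17, MRPS18C, MRPS28 and MRPS33 were over 2-fold lower with GLUP in both of these fits. MRPS2 and MRPS34 were over 2-fold higher in both. The share of all genes tested that did so was not taken, so these genes are not set apart from the rest. Both fits share the GLUP libraries, so they are not independent. Without a GLUP library, when the spread comes from the control libraries alone, 1 of the 16 lower and 1 of the 6 higher calls stood without GLUP replicate 1, and 4 and 3 without GLUP replicate 2.

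The levels of several genes turned on control replicate 2, and these were singled out after their values were seen. MRPL42, a large subunit protein, had the lowest log2 fold change of all, −2.38 (SE 1.19, adjusted p = 0.22), from 25.4 and 356 FPKM in control and 25.7 and 12.1 FPKM with GLUP. Control replicate 2 alone was high, and control replicate 1 lay between the GLUP values. MRPL28 gave 277 and 31.1 FPKM in control and 232 and 237 FPKM with GLUP, and MRPS18A gave 101 and 14.6 FPKM against 109 and 107 FPKM. In both, control replicate 2 was low and the other 3 libraries were alike. MRPL12, the stalk protein that also binds the mitochondrial RNA polymerase, was at 7.05 FPKM in control replicate 1, listed at 0 in control replicate 2 and at 2.21 and 3.09 FPKM with GLUP, so no fold is drawn from it. None of these 4 was called. Over the 78 genes the control libraries differed by a median of 0.66 and the GLUP libraries by 0.18, as absolute differences of log2(FPKM + 1). More than 2-fold apart on this scale were 23.1% of the genes between the controls (19.1% of all genes tested) and 2.56% between the GLUP libraries (1.63% of all genes tested).

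By role within the ribosome, the listed group with the largest share called lower was the head of the small subunit, the part that grips messenger RNA and moves during translocation. Of its 8 listed proteins 4 were called lower (MRPS10, MRPS14, MRPS31 and MRPS33), none higher, and the median log2 fold change was −0.95. The background over all genes tested was 14.5% lower and 4.67% higher. The median GC content of these genes was 41.5%, and of the 26 mitoribosomal genes of lowest GC 46.2% were called lower. MRPS14, which sits at the subunit's head as its bacterial counterpart does, gave 180 and 280 FPKM in control and 94.4 and 109 FPKM with GLUP, with the groups apart. In the same group MRPS24 gave 187 and 171 FPKM against 229 and 250 FPKM, and MRPS7 gave 149 and 58.8 FPKM against 154 and 152 FPKM, so the head genes did not all lie on 1 side. MRPS12, of the decoding centre where codon and anticodon are matched, gave 182 and 38.7 FPKM in control and 187 and 197 FPKM with GLUP, a log2 fold change of 1.18 (SE 0.72, adjusted p = 0.28). Its higher control value was close to both GLUP values.

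The counts of the next groups are to be read against the same background, 14.5% of genes tested called lower and 4.67% higher. In the large subunit, 2 of 5 proteins of the central protuberance were called lower (MRPL46 and MRPL48) and 1 higher (MRPL38), with a median of −0.69. Of 7 proteins around the exit tunnel, 2 were called lower (MRPL22 and MRPL47) and none higher, with a median of −0.19. MRPL24, another tunnel protein, gave 161 and 102 FPKM in control and 175 and 185 FPKM with GLUP. Around the peptidyl transferase centre, where peptide bonds are made, 1 of 5 was called lower (MRPL27) and none higher, with a median of 0.0039. There MRPL16 gave 46.7 and 60.4 FPKM against 44.1 and 48 FPKM, and MRPL3 gave 28.7 and 15.3 FPKM against 21.1 and 21.0 FPKM, with overlapping groups in both. In the stalk, 1 of 4 was called higher (MRPL10) and none lower, with a median of 0.22. MRPL53 gave 122 and 211 FPKM in control and 72.5 and 113 FPKM with GLUP, and MRPL11 gave 81.0 and 57.5 FPKM against 69.0 and 76.5 FPKM. The whole large subunit had a median of −0.18 with 3 called higher and 9 lower of 51 (5.88% and 17.6%), and the small subunit −0.48 with 3 and 7 of 26 (11.5% and 26.9%). Genes listed with a bacterial counterpart had 2 called higher and 10 lower of 46 (4.35% and 21.7%), and the others 4 and 6 of 32 (12.5% and 18.8%). MRPS18A and MRPS18B, relatives of MRPS18C, were listed among the others. The differences between these groups were not tested.

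The direction of the difference moved with the base composition of the transcript. GC content, taken from the longest annotated transcript, ran from 33.5% to 66.7% over the 78 genes. Across these genes the log2 fold change had a Spearman rho of 0.56 with GC content, and across all genes tested 0.58. All points come from the same 4 libraries, so these are descriptions. In the 26 genes of lowest GC, 12 were called lower and 1 higher (46.2% and 3.85%), with a median of −0.95, whereas all genes tested in that GC range had 26.8% called lower, 0.111% higher and a median of −0.72. In the 26 of middle GC, 3 were called lower and 1 higher (11.5% and 3.85%), with a median of −0.31, near the 10.9% and 2.08% called among all genes in the range and their median of −0.35. In the 26 of highest GC, 1 was called lower and 4 higher (3.85% and 15.4%), with a median of 0.46, and of all genes in the range 3.52% were called lower and 12.8% higher, with a median of 0.32. Genes on the other side of this pattern included MRPL41, called lower at 66.7% GC, the highest of the 78, and MRPS25, called higher at 43.4% GC, and 8 of the 26 genes of highest GC had a log2 fold change below 0. The difference between the 2 control libraries also followed GC content, with a rho of −0.57 over the 78 genes, and so did the GLUP difference without control replicate 2 (0.30) and without control replicate 1 (0.60). Median levels of the GC-richest 26 genes were 44.8 and 22.7 FPKM in control and 62.0 and 60.9 FPKM with GLUP, and those of the GC-poorest 26 were 34.9 and 37.8 FPKM and 25 and 23.1 FPKM.

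**Figure D4:**
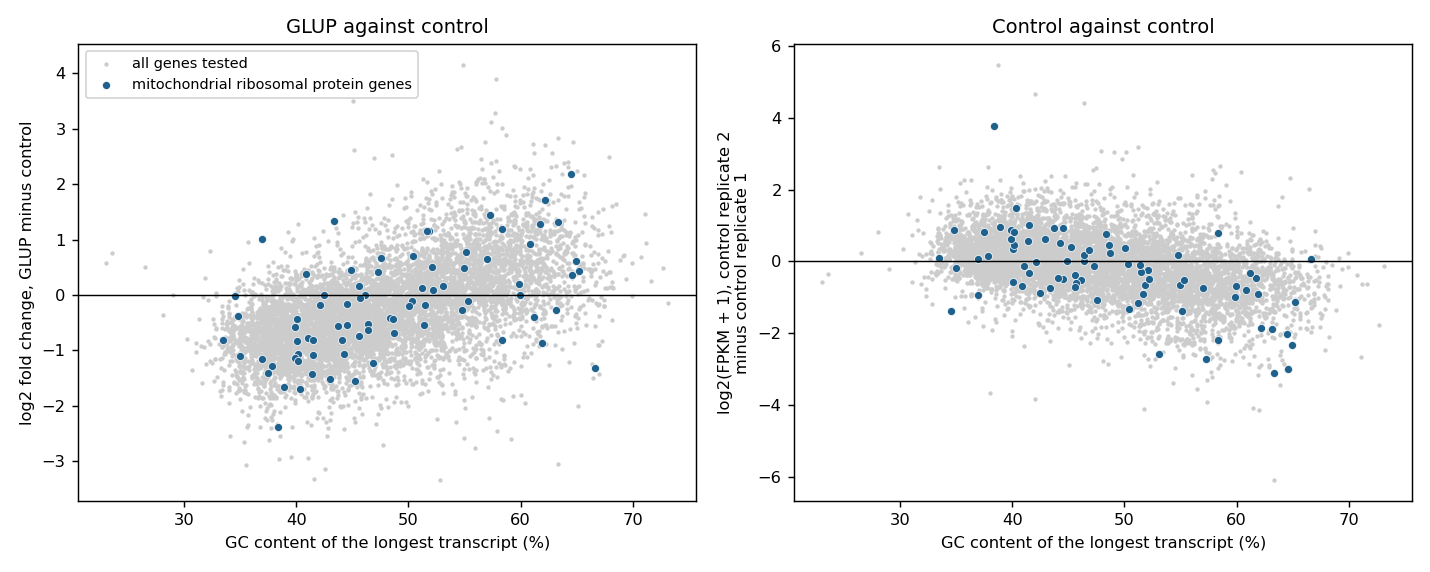
Log2 fold change, GLUP minus control (left), and control replicate 2 minus control replicate 1 (right), both on the log2(FPKM + 1) scale, against GC content of the longest transcript in percent, for the 78 genes (blue) and all genes tested (grey). The blue points climb with GC on the left (rho 0.56) and descend on the right (rho −0.57).

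After a GC correction of each library, 3 of the 78 genes were called lower (background 4.57% of genes tested) and 7 higher (background 4.68%). MRPL48, at −1.08, and MRPL41, at −1.93, were still called lower, and of the 6 higher genes 5 were still called. MRPS34 then stood at 1.6, MRPS25 at 1.91, MRPL38, MRPL49 and MRPL10 at 1.19 each, and MRPS2 at 0.75, below the fold threshold. MRPL13 changed from −0.82 to 0.07 under this correction. The correction also removed the shift of all genes, whose median log2 fold change became 0.00078. The parts of the shift and of the GC trend were not separated. With each library centred on its median, which removes the shift of all genes, 5 were lower (background 5.64%) and 8 higher (background 10.5%). The 5 were MRPS18C, MRPL48, MRPS28, MRPS33 and MRPL32, and the 6 higher genes of the main comparison were all still called. The part of base composition in the GLUP difference was not tested further.

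Promoter sequences from RefSeq on GRCh38.p14, 250 bases before and 50 after the start, were matched for 69 of the 78 genes. Not matched were MRPL2, MRPL10, MRPL13, MRPL15, MRPL21, MRPL23, MRPL35, MRPS28 and MRPS36. Nuclear genes for mitochondrial proteins are known for promoters with sites for GABP (an ETS factor) and NRF1, and many housekeeping promoters hold YY1 sites near the start. The ETS/GABP letters CCGGAAG were found on either strand in 29 of the 69 promoters, or 42.0%, against 23.5% of promoters of genes tested and 10.7% of all promoters. The YY1 letters AAGATGG were found in 23, or 33.3%, against 9.77% and 6.06%. The NRF1 letters GCGCNTGCG were found in 11, or 15.9%, against 18.1% and 8.05%. CATTCC, the MCAT element bound by TEAD factors, was found in 10, or 14.5%, against 10.8% and 14%. The ETS/GABP and YY1 letters can share their AAG, and in 0 of the 9 promoters that hold both did the matches overlap in this way. Promoters with the ETS/GABP letters had a median log2 fold change of −0.53 and those without −0.06. Of the 29 with them 7 were called lower and 2 higher, and of the 40 without them 8 and 3. Over all genes tested 14.5% were called lower and 4.67% higher. Promoters with the YY1 letters had a median of −0.01 and those without −0.34. Called lower were 6 of 23 and 9 of 46, and called higher 2 and 3. For the NRF1 letters the medians were −0.64 with and −0.13 without them. Called lower were 3 of 11 and 12 of 58, and called higher 0 and 5. For the MCAT letters the medians were 0.13 with and −0.28 without them. Called lower were 2 of 10 and 13 of 59, and called higher 0 and 5. These differences were not tested. A match of letters is a description and not a site shown to be bound. The sequences below show this for the 2 largest differences in each direction among called genes with a promoter in the table, over 250 bases that run from 220 before the start to 30 after it, in the direction of transcription, with matches to the ETS/GABP, YY1 and NRF1 letters in capitals.
MRPS34: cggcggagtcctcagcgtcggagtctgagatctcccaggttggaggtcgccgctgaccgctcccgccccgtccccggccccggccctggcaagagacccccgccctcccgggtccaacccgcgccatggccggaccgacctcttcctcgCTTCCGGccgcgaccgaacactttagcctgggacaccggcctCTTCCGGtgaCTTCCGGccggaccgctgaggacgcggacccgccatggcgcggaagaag
MRPL38: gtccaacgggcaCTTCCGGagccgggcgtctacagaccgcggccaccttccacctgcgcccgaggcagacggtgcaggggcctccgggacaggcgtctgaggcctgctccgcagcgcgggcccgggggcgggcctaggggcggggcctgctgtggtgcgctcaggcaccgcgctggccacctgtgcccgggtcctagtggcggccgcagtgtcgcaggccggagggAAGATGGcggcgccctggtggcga
MRPS18C: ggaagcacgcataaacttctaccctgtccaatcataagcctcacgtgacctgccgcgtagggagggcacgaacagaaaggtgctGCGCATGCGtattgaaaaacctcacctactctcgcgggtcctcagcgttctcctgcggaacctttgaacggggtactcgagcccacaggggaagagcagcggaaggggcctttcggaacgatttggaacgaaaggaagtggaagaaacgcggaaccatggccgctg
MRPL22: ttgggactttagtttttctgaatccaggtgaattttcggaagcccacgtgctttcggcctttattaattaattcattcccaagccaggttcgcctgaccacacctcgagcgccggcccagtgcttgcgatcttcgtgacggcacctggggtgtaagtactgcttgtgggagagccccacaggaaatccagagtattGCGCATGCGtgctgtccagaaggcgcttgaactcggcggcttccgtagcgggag
They lie on GRCh38.p14 at chr16:1773105-1773354 (minus strand) for MRPS34, chr17:75904855-75905104 (minus strand) for MRPL38, chr4:83455838-83456087 (plus strand) for MRPS18C and chr5:154940853-154941102 (plus strand) for MRPL22. Within the bases shown, the promoter of MRPS34 holds 3 ETS/GABP matches. There that of MRPL38 holds 1 ETS/GABP and 1 YY1 match, the latter just downstream of the start. Within the bases shown, those of MRPS18C and MRPL22 hold 1 NRF1 match each, and at or beyond their edge the MRPS18C promoter also holds the ETS/GABP letters and the MRPL22 promoter the YY1 letters.

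The ribosome's partners give the setting. The mitochondrial ribosomal RNAs, named after their values were seen, had higher values with GLUP. MT-RNR1, of the small subunit, gave 1208 and 1274 FPKM in control and 3399 and 2436 FPKM with GLUP, a log2 fold change of 1.21 (adjusted p = 0.10). MT-RNR2, of the large subunit, gave 11793 and 10199 FPKM against 25801 and 17946 FPKM, a log2 fold change of 0.97 (adjusted p = 0.10). Both GLUP libraries lay above both controls for each RNA. Of the ribosome's proteins, 5 with other symbols were listed, and 1 was called in each direction. Over all genes tested 14.5% were called lower and 4.67% higher, and 5 genes are too few to set a share against these. AURKAIP1, of the small subunit, gave 32.0 and 4.93 FPKM in control and 94.6 and 63.9 FPKM with GLUP, a log2 fold change of 2.49 with control replicate 2 again the lowest. PTCD3, a pentatricopeptide protein of the small subunit, gave 15.3 and 28.2 FPKM against 7.93 and 6.6 FPKM, a log2 fold change of −1.41. CHCHD1 gave 46.1 and 52.6 FPKM against 35.7 and 36.2 FPKM and was not called.

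Of 29 listed assembly factors 26 were tested, with 1 called higher, 3 called lower and a median of −0.09. These shares, 3.85% and 11.5%, were near the 4.67% and 14.5% of all genes tested. GTPBP10, a GTPase that matures the large subunit, gave 7.21 and 9.56 FPKM in control and 1.84 and 1.85 FPKM with GLUP, a log2 fold change of −1.71. MALSU1, which binds the large subunit late in its assembly, gave 57.1 and 70.9 FPKM against 22.8 and 25.3 FPKM, a log2 fold change of −1.37. MPV17L2, an inner membrane protein of ribosome assembly, gave 3.45 and 0.573 FPKM against 8.32 and 8.39 FPKM, a log2 fold change of 1.82. MTG1, another GTPase of the large subunit, gave 7.48 and 1.14 FPKM against 10.3 and 7.74 FPKM and was not called. Both lower genes had close control libraries, and both higher genes had their lowest value in control replicate 2.

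Of 16 translation factors and regulators 12 were tested, with 1 called higher, 2 called lower (8.33% and 16.7%, against 4.67% and 14.5% of all genes tested) and a median of −0.68. MTIF3, an initiation factor, gave 32.5 and 36.6 FPKM in control and 11.7 and 13.3 FPKM with GLUP, a log2 fold change of −1.40. TACO1, the translational activator of cytochrome c oxidase subunit I, gave 8.0 and 10.2 FPKM against 3.45 and 3.50 FPKM, a log2 fold change of −1.17. TUFM, the elongation factor that brings aminoacyl-tRNA, gave 38.5 and 17.1 FPKM against 71.5 and 58.6 FPKM, a log2 fold change of 1.30. Of 5 genes of mitochondrial transcription 4 were tested and 2 were called lower, too few to set a share against that background. MTERF1, a termination factor, gave 9.45 and 24.5 FPKM in control and 1.48 and 2.98 FPKM with GLUP, a log2 fold change of −2.38. TEFM, the elongation factor of the mitochondrial polymerase, gave 24.5 and 23.5 FPKM against 7.34 and 7.47 FPKM, a log2 fold change of −1.57. In MTIF3, TACO1, MTERF1 and TEFM both GLUP libraries lay below both controls. Set beside the mitoribosome, the 77 cytosolic ribosomal protein genes had 11 called higher and 0 lower (14.3% and 0%), with a median of 0.15. The 77 nuclear-encoded respiratory chain subunits had 3 higher and 7 lower (3.9% and 9.09%), with a median of −0.41, and all genes tested had 4.67% higher and 14.5% lower. These differences between gene families were not tested.

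**Figure D5:**
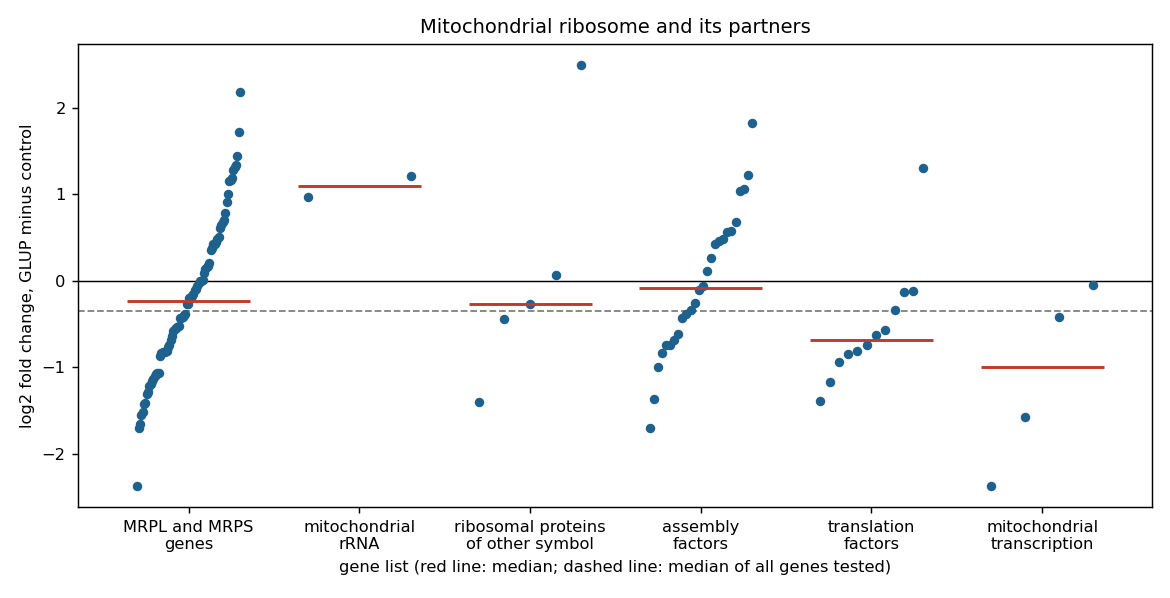
Log2 fold change, GLUP minus control, on the log2(FPKM + 1) scale (vertical axis) of each gene tested in 6 lists (horizontal axis), with the median of each list as a red line and that of all genes tested as a dashed line. Both ribosomal RNAs lie near 1, the MRPL and MRPS genes have a median of −0.24 and spread from −2.38 to 2.19, and the 4 genes of mitochondrial transcription all lie below 0.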

How the data were processed

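The authors deposited 1 FPKM value per gene and library for 2 control and 2 GLUP-treated HGC-27 libraries, made from reads analysed on a commercial cloud platform. Per the labels, the submitters' processing notes name HISAT2, Cufflinks, RSEM and GRCh38.p10, without versions of the tools or their roles, whereas the row identifiers carry the form of GENCODE annotation lifted to GRCh37. Which build was counted is therefore not settled. Gene symbols, positions, overlaps and GC content were taken from GENCODE lifted to GRCh37, and promoter sequences from RefSeq (GRCh38.p14). Rows of 1 gene ID were summed, and 99.55% of the 62443 genes had a symbol.

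The 7588 genes whose mean reached 1 FPKM were fitted as log2(FPKM + 1) with limma 3.58.1 in R 4.3.3, with a mean-variance trend, the group as the only term and Benjamini-Hochberg adjustment over all genes tested. The 2 thresholds were an adjusted p under 0.05 and, as a description, an unadjusted p under 0.05, each with a fold change over 2. The fit was tested on simulated data. No exact permutation test was made, as its smallest two-sided p for 2 against 2 libraries is 0.333. The GC correction, an alternative, subtracted from each library a lowess curve (span 0.3) of its deviations against GC content, known for 99.8% of genes tested.

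The genes and lists were chosen with earlier results of these data known. Named with values were the 6 most abundant genes, the called genes up to the 8 largest in each direction, the 3 nearest to the median of all genes, up to 3 per role by level and the 2 largest differences in each direction per partner list. MRPL12, MRPL28, MRPL42, MRPS18A and both mitochondrial ribosomal RNAs were added after their values were seen. The 86 other genes with an MRPL or MRPS name (79 pseudogenes and 7 long noncoding RNAs) were left out.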

Additional observations from a re-analysis of the deposited data

Results flagged for a closer look

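Values were present in both GLUP libraries and listed at 0 in both control libraries for 2 genes outside the comparisons. The pseudogene MRPS36P3 was at 0.0143 FPKM in GLUP replicate 1 and 0.439 FPKM in GLUP replicate 2. The readthrough gene URGCP-MRPS24, which overlaps MRPS24, was at 0.943 FPKM and 0.216 FPKM. All 4 values lie below 1 FPKM, the minimum mean level for testing, and the difference was not tested.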

How the results depend on the processing

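The 16 genes called lower became 5 with each library centred on its median, 6 after quantile normalization, 3 after GC correction and 4 after GC correction with the replicate block. Over all genes tested the share called lower also fell, from 14.5% to 5.64% with centring and 4.57% after GC correction. For quantile normalization and the fits with the replicate block that share was not taken. Centring, quantile normalization and GC correction each largely remove the shift of all genes, and GC correction also removes the GC trend. With 1 library left out, between 2 and 21 genes were called lower, between 1 and 19 higher, and between 0 and 40 under the adjusted threshold. The median of the 78 genes minus that of all genes tested, 0.12 on the log2 scale, was −0.22 when all genes with a value above 0 were tested, −0.071 after GC correction, with or without the replicate block, and between −0.025 and 0.18 with 1 library left out. The cause of these last changes was not tested. With the replicate block alone, 7 genes were called higher, 17 lower and 0 under the adjusted threshold. Deviations of same-numbered libraries correlated at 0.13, with 2 pairs and nothing in the labels or methods to tie equal numbers, so the numbers were not taken as pairs. A pseudocount of 0.1, a minimum mean of 5 FPKM, no mean-variance trend and a fold change of 1.5 left each of these counts within 1.5 times its main value, while the pseudocount of 0.1 moved the median difference from 0.12 to 0.22. None of the 22 called MRPL and MRPS genes changed sign under these alternatives, which were not run for the genes of the partner lists. What depth limits could not be measured, since the FPKM values carry no read numbers.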
